A study of Homo sapiens with 9 samples.

Results

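Levels of 8 genes that carry out necroptosis, pyroptosis and caspase-8 signaling (*RIPK1*, *RIPK3*, *MLKL*, *CASP8*, *FADD*, *CFLAR*, *GSDMD* and *GSDME*) were read from RNA-seq counts of the human lung adenocarcinoma line A549. The genes were chosen by name, 8 of 26364 gene names in the table, where *GSDME* is listed under its older symbol *DFNA5*. The study bears on them in part because it examined necroptotic area in tumors after *FOS* inhibition. That area was read from histology, and the figure legend calls it necrosis area. The libraries analysed here came instead from cultured cells, and the labels name no agent that kills cells. All 8 had at least 1 count, and 7 passed the filter on low counts in each of the 3 comparisons. *RIPK3* did not.

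The 9 libraries fell into 4 groups. Control cells (2 libraries) had the genotype WT. *LA* cells (2 libraries) carried the guides sg*LOC388942* and sg*ALK*, which gave the *LOC388942-ALK* (*LA*) fusion. The sgScr cells (3 libraries) carried these guides and a scramble guide, and the sg*FOS* cells (2 libraries) carried them and guides against *FOS*, so that sgScr and sg*FOS* share the fusion background. Per the methods, fusion cells were made in Cas9-expressing A549 cells by lentivirus and grown out from single cells, so the fusion and the properties of a clone cannot be told apart. The labels give the control genotype as WT and do not say which *FOS* guide was used in which library. Nothing says that replicates came from separate cultures, and p-values then measure the spread between these libraries, which may be technical.

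Necroptosis and apoptosis share their first steps at death receptors. *FADD*, an adaptor, brings *CASP8* to the receptor complex; *CFLAR*, which encodes the caspase-8-like protein cFLIP, limits its activation; and *RIPK1* is the kinase that scaffolds the complex. Where caspase-8 is held back, *RIPK1* and *RIPK3* join through a shared motif, *RIPK3* phosphorylates the pseudokinase *MLKL*, and *MLKL* breaches the plasma membrane. Pyroptosis instead runs through gasdermins, pore-forming proteins freed by cleavage: *GSDMD* is cut by inflammatory caspases, also by caspase-8 in some settings, and *GSDME* is cut by other caspases.

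*FOS* encodes a subunit of the transcription factor AP-1, so promoters of the members were searched for its motif. RefSeq promoters on GRCh38.p14, each with 250 bases before and 50 after a start, covered 6 members in 13 entries, and promoters of *RIPK3* and *GSDMD* were not analysed here. On either strand, the AP-1 motif TGACTCA was found in 2 entries, both of *CASP8*, and in 4.95% of all 35116 promoters. The interferon response motif (TTTC, then NN, then TTTC) was found in 3 entries (*RIPK1* entries 2 and 3, which overlap and hold the same match, and *CASP8* entry 1) and in 3.57% of all promoters. Of the kappaB motif only 1 narrow form (GGG, then NN, then TTTCC) was searched. It was found in 0 entries and in 1.91% of all promoters. Other forms of the kappaB motif were not searched, so their absence from these promoters is not shown. Printed here are the *CASP8* promoters with an AP-1 match, the *RIPK1* promoter with an interferon response match, and, without any of the 3 motifs, the promoter of *FADD*, the member with the lowest adjusted p after *FOS* editing. Capitals mark the match, and all 3 genes lie on the plus strand.
CASP8 entry 2, chr2:201257785-201258084: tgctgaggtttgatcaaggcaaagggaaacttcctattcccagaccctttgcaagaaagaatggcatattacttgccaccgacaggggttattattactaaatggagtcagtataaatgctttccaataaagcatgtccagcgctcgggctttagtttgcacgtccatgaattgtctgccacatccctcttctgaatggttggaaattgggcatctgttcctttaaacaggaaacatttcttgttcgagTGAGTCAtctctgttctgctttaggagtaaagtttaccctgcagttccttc
CASP8 entry 3, chr2:201260286-201260585: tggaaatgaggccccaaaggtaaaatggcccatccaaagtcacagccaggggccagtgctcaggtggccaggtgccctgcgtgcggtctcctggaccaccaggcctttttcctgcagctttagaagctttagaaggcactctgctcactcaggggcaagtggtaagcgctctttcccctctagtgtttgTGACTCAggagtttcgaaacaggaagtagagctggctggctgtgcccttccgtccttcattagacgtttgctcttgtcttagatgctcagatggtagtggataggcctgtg
RIPK1 entry 2, chr6:3068128-3068427: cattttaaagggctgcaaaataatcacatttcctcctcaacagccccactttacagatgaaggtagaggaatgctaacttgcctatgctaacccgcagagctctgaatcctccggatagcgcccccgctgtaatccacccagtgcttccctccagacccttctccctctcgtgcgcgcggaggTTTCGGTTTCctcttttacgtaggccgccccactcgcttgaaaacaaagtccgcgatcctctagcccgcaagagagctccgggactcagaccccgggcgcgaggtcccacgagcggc
FADD entry 1, chr11:70203046-70203345: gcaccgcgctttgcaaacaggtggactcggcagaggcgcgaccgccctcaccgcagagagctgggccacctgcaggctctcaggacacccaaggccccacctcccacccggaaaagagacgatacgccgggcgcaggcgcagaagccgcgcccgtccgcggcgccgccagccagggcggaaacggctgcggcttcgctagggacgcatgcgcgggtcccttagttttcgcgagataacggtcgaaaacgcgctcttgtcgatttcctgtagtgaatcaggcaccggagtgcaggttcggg
The AP-1 match began 1 base before the start in *CASP8* entry 2, on the minus strand, and 61 bases before it in entry 3. The match in *RIPK1* entry 2 began 67 bases before the start. A match is a description of letters and no evidence of binding.

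Total counts ranged from 14507228 to 20456341 per library, and levels are given as counts per 1000000 (CPM) scaled by the TMM method over all 9 libraries. *FOS*, the edited gene, stood at 68.3 and 74.1 CPM in sg*FOS* and at 199.7, 196 and 203 CPM in sgScr. The groups did not overlap, and *FOS* was 2.79-fold lower in sg*FOS* (log2 fold change -1.48, SE 0.044, adjusted p = 2e-25 by edgeR's quasi-likelihood test). The *LA* libraries lay far apart in *FOS*, at 334 and 92.7 CPM, above control at 10.8 and 9.14 CPM. Among the epithelial markers, *KRT8*, *KRT18*, *KRT7*, *EPCAM* and *CDH1* had counts in all 9 libraries, with a sum of 13500 to 24500 CPM in control and 6870 to 12800 CPM in the other groups. Among the leukocyte markers, *PTPRC* and *CD3E* were at 0 in all 9 libraries while *CD14* stood at 8.12 to 42.6 CPM, with the list's sum at 29.1 to 42.6 CPM in control and 8.12 to 15.5 CPM in the other groups. The 3 endothelial markers summed to at most 1.06 CPM, and the 4 fibroblast markers to 6.38 to 17.7 CPM, of which *COL1A1* gave 6.38 to 17.5. The part of these levels in the results was not tested. Replicates of sgScr and of sg*FOS* were far more alike than those of control or *LA*: the biological coefficient of variation was 0.0296 in sg*FOS* against sgScr and 0.329 in *LA* against control.

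*RIPK3* was close to absent from these libraries. It had 0 counts in 8 of 9 libraries and 1 count in *LA* replicate 2, out of 155486945 counts in all. A count of 0 allows up to 3 counts, which corresponds to 0.143 to 0.203 CPM in a library, counting error only. Per kilobase of transcript this limit is at most 0.109 CPM, whereas *RIPK1*, the partner kinase, was never under 6.0 CPM per kilobase. A difference of *RIPK3* between groups was not detectable at this depth.

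*RIPK1*, on chromosome 6 (GRCh37, 3064058 to 3115421, plus strand), had a similar level in all groups. It stood at 26.3 and 24.5 CPM in control, 27.0 and 32.7 CPM in *LA*, 27.6, 27.9 and 29.8 CPM in sgScr, and 31.7 and 31.8 CPM in sg*FOS*. Control was the lowest group and sg*FOS* lay above every sgScr library, but *LA* spanned sgScr and sg*FOS*.

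*MLKL*, the executor of necroptosis (chromosome 16, 74705753 to 74734858, minus strand), was highest in sgScr and sg*FOS*. It stood at 19.1 and 21.5 CPM in control, 22.2 and 9.89 CPM in *LA*, 28.1, 27.1 and 26.5 CPM in sgScr, and 30.0 and 32.3 CPM in sg*FOS*. Every sg*FOS* library lay above every sgScr library, and these lay above every control and *LA* library. *LA* replicate 2 was the lowest of the 9.

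*CASP8* (chromosome 2, 202098166 to 202226559, plus strand) stood at 37.2 and 49.7 CPM in control, 65.1 and 46.2 CPM in *LA*, 64.1, 62.5 and 62.7 CPM in sgScr, and 64.6 and 69.0 CPM in sg*FOS*. The *LA* libraries reached from within the control range to above the sgScr libraries. *FADD* (chromosome 11, 70049402 to 70053496, plus strand) showed another order, with 81.3 and 69.9 CPM in control, 55.0 and 59.2 CPM in *LA*, 42.8, 41.4 and 43.3 CPM in sgScr, and 56.1 and 52.8 CPM in sg*FOS*. Control was highest and sgScr lowest without overlap, and sg*FOS* overlapped with *LA*. An antisense long noncoding RNA covers 1011 of the 1708 exonic bases of *FADD*, and since the strand setting of the counting is not given in the sources used here, reads of the pair cannot be told apart.

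*CFLAR*, like *CASP8*, lies on chromosome 2 (201980877 to 202041410, plus strand). It stood at 68.7 and 57.2 CPM in control, 83.3 and 167 CPM in *LA*, 78.7, 77.2 and 77.5 CPM in sgScr, and 89.3 and 93.0 CPM in sg*FOS*. *LA* replicate 2 was the highest of the 9, at 2.01-fold the level of *LA* replicate 1. The ratio of *CFLAR* to *CASP8* counts, inhibitor to protease, was 1.23 to 1.24 in sgScr and 1.35 to 1.38 in sg*FOS*. It was 1.85 and 1.15 in control and 1.28 and 3.62 in *LA*, so the spread within either of these groups exceeded the difference between the edited groups.

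*GSDMD* (chromosome 8, 144635377 to 144645232, plus strand) was level across the 3 groups with the fusion. It stood at 71.3 and 34.6 CPM in control, 25.2 and 31.6 CPM in *LA*, 28.02, 29.0 and 29.5 CPM in sgScr, and 30.0 and 27.4 CPM in sg*FOS*. Both control libraries lay above all others, and control replicate 1 was 2.06-fold above control replicate 2. *GSDME* (chromosome 7, 24737974 to 24797559, minus strand) was the member whose groups were most distinct, with 20.7 and 26.7 CPM in control, 57.1 and 62.2 CPM in *LA*, 32.0, 33.0 and 31.6 CPM in sgScr, and 36.3 and 34.7 CPM in sg*FOS*. The 4 groups did not overlap in *GSDME*, in the order control, sgScr, sg*FOS* and *LA*.

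**Figure D1:**
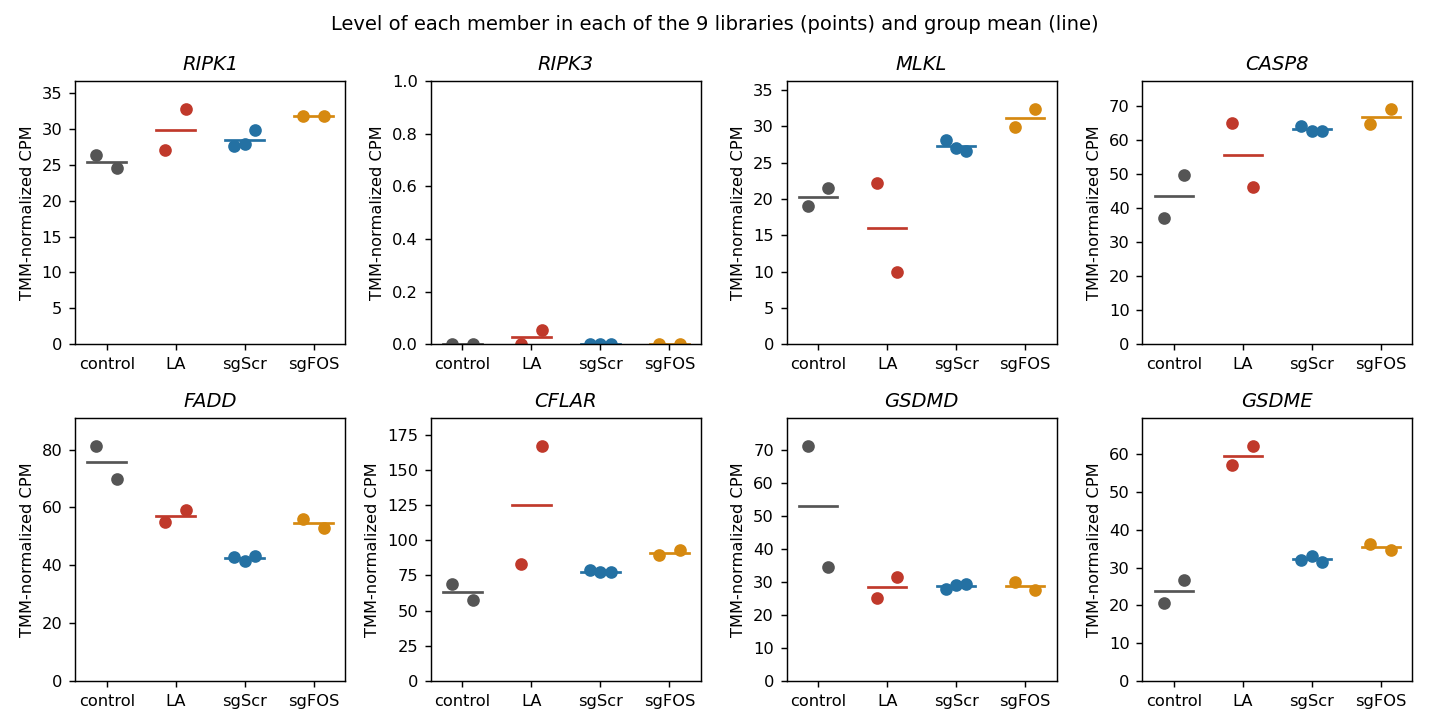
TMM-normalized CPM (linear axes from 0, a scale for each gene) of the 8 members in control, *LA*, sgScr and sg*FOS*; each point is a library and each line a group mean. *RIPK3* had 1 count in all, *GSDME* separated the 4 groups, and the *LA* libraries lay far apart in *CFLAR* and *MLKL*.

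Per kilobase of transcript, the scale on which genes can be compared, *FADD* and *CASP8* were the most abundant members in sgScr, at 24.9 and 23.7 CPM per kilobase. *GSDMD* and *GSDME* followed at 16.7 and 14.3, *MLKL* at 11, *RIPK1* at 6.95 and *CFLAR* at 5.32 CPM per kilobase. The *CFLAR* value rests on a transcript of 14612 bases, the longest used here, and would be higher for a shorter isoform. *GSDMD* and *GSDME* stood at like levels in sgScr and sg*FOS*, while in control *GSDMD* was higher (30.7 against 10.5 CPM per kilobase) and in *LA* *GSDME* was (26.5 against 16.5). Some sensors and effectors, singled out after their values were seen, were near or at 0. *ZBP1*, the nucleic acid sensor that can engage *RIPK3*, had 1 count in all, *CASP5* and *GSDMA* had 0 in all 9 libraries, and *NLRP3* and *AIM2* had 2 counts each in 1 library. *CASP1*, the inflammasome caspase that cuts *GSDMD*, had 0 to 12 counts per library. Others were well detected, among them *CASP4*, which also cuts *GSDMD*, at 3.27 to 7.43 CPM, *CARD8* at 19.8 to 39.4 CPM, *NAIP* at 8.79 to 15.8 CPM and *NINJ1* at 45.9 to 102 CPM.

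**Figure D2:**
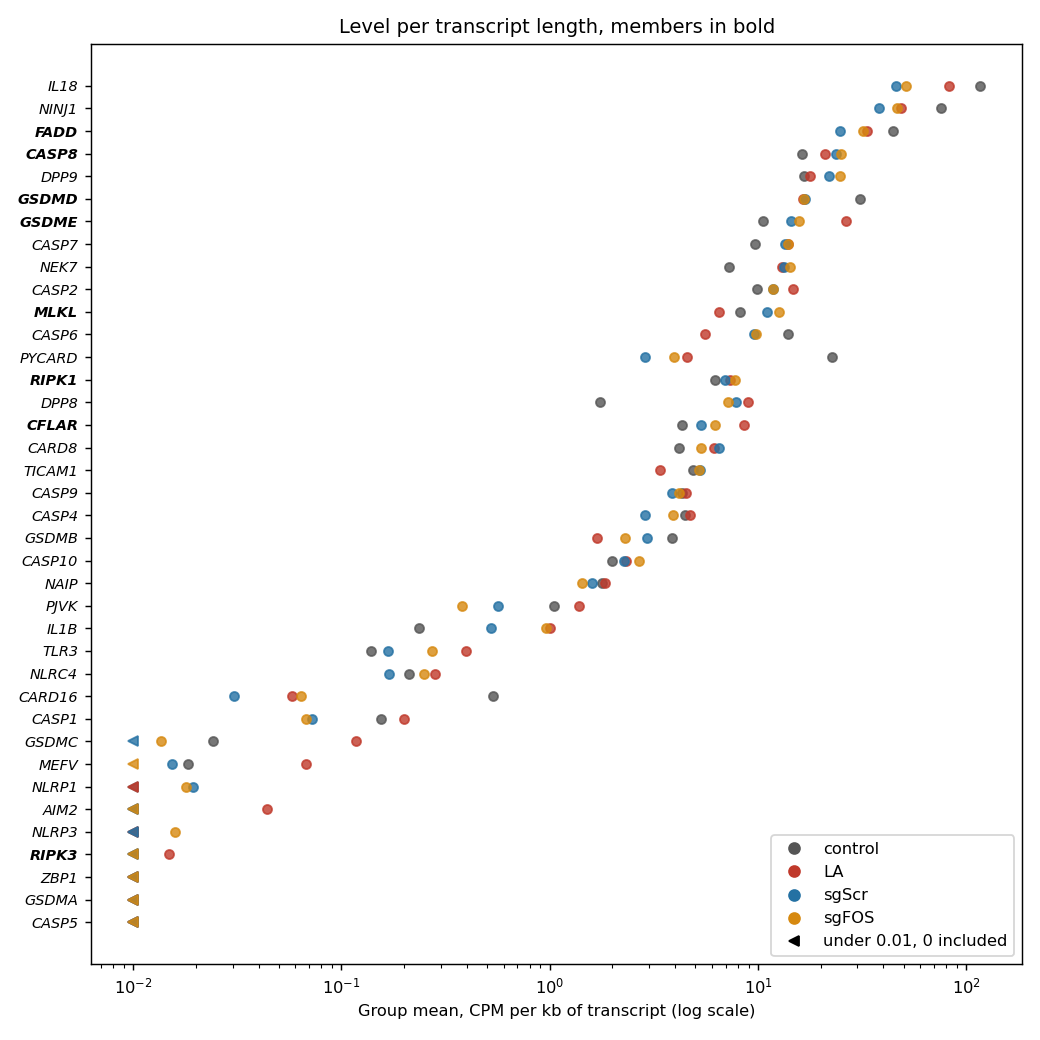
Group means in CPM per kilobase of transcript (log axis) for the 8 members, in bold, and for sensors, caspases, inflammasome genes and gasdermins; color marks the group and triangles mark means under 0.01, 0 included. *FADD*, *CASP8*, *GSDMD* and *GSDME* are in the upper rows, and *RIPK3* and *ZBP1* are near the bottom.

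*LA* against control asked how cells with the fusion differ from parental cells. *GSDME* was 2.47-fold higher in *LA* (log2 fold change 1.30, SE 0.412, adjusted p = 0.0290 by edgeR's quasi-likelihood test). It was the only member of 7 called, that is, with an adjusted p under 0.05, against 9.57% of all 14425 genes called higher and 9.94% called lower. The call was lost on leaving out control replicate 1 (adjusted p = 0.0794), *LA* replicate 1 (0.279) or *LA* replicate 2 (0.325), with log2 fold changes of 1.09 to 1.33, and with the replicate number as a block (0.108). With length and GC content of the transcripts corrected for, it was 1.47 (SE 0.26, adjusted p = 0.0089).

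The other members did not pass the test. *CFLAR* had a log2 fold change of 0.96 (SE 0.416, adjusted p = 0.103), which was 0.41 without *LA* replicate 2 and 1.35 without *LA* replicate 1. *GSDMD* had -0.92 (SE 0.432, adjusted p = 0.134), and the value was -0.36 without control replicate 1 and -1.42 without control replicate 2, where it passed (adjusted p = 0.00655). *FADD* had -0.43, *MLKL* -0.36, *CASP8* 0.33 and *RIPK1* 0.21, with SE of 0.389 to 0.462. The same correction turned *CFLAR* to -0.31, *FADD* to 0.17 and *RIPK1* to -0.16 and brought *GSDMD* to -0.06. It used a single transcript for each gene, of 14612 bases for *CFLAR*, and the corrected value may differ for another isoform. Groups did not overlap in 3 members that were higher (*RIPK1*, *CFLAR* and *GSDME*) and 2 that were lower (*FADD* and *GSDMD*), where 33.8% of all genes were higher and 30.0% lower without overlap. At the threshold of the study, an absolute log2 fold change over 0.5 with an unadjusted p under 0.05, *GSDME* and *CFLAR* were higher and *GSDMD* lower, where 17.4% of all genes were higher and 17.1% lower. The median log2 fold change was 0.21 over the 7 members and 0.044 over all genes tested.

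sg*FOS* against sgScr compared *LA* cells that carried *FOS* guides with *LA* cells that carried a scramble guide. The edit cannot be told apart from other differences between these cell populations. sgScr against *LA*, where *FOS* was not edited, called 3327 of 14521 genes, beside 3221 of 14196 here. *FADD*, *CFLAR* and *MLKL* were higher in sg*FOS*, each by less than 1.3-fold, and 0 members were lower. The called members were 3 of 7, against 12.2% of all 14196 genes called higher and 10.5% called lower. At an unadjusted p under 0.05, 5 of 7 members were higher and 0 lower, where 2478 and 2334 of all 14196 genes were. *FADD* was 1.29-fold higher in sg*FOS* (log2 fold change 0.36, SE 0.057, adjusted p = 6.13e-06). *CFLAR* was 1.17-fold higher (0.23, SE 0.045, adjusted p = 0.00014). *MLKL* was 1.15-fold higher (0.20, SE 0.073, adjusted p = 0.0458), a call that held in 3 of 15 alternative fits, with a log2 fold change of 0.14 to 0.25. Among other settings it was lost without sg*FOS* replicate 1 or 2 (adjusted p = 0.0687 and 0.377), without sgScr replicate 2 or 3 (0.106 and 0.0819) and with the replicate block (0.102).

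The other members did not pass the test. *RIPK1* had a log2 fold change of 0.17 (SE 0.071, adjusted p = 0.0902), *GSDME* 0.14 (SE 0.067, adjusted p = 0.124) and *CASP8* 0.09 (SE 0.051, adjusted p = 0.237). *GSDMD* had 0.00023 (SE 0.073, adjusted p = 0.999). All but *GSDMD* were higher in every sg*FOS* library than in every sgScr library, 6 of 7 members, where 24.0% of all genes were higher and 24.5% lower without overlap. The median was 0.17 over the members and -0.001 over all genes. The calls for *FADD* and *CFLAR* held in 14 of 15 alternative fits. They were lost when all 9 libraries were fitted together by edgeR, so that the spread of control and *LA* entered. That fit called 0 genes in all. At an unadjusted p under 0.05 it had 444 of 14849 genes, with *FADD* the only member. No member reached an absolute log2 fold change of 0.5, the size threshold of the study, which 3.73% of all genes passed as higher and 2.03% as lower with an unadjusted p under 0.05.

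**Figure D3:**
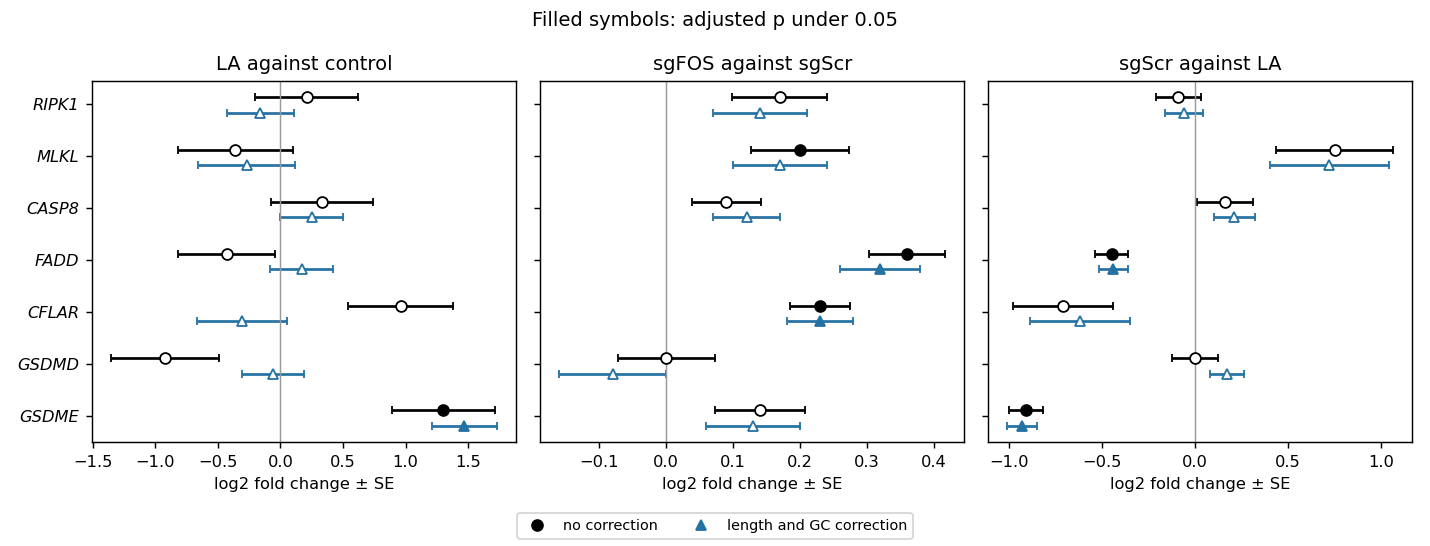
Log2 fold change with its SE (bars) of the 7 tested members in the 3 comparisons, without (circles) and with (triangles) a correction for GC content and length of transcripts; filled symbols have an adjusted p under 0.05 and each panel has its own axis range. The correction turned *CFLAR*, *FADD* and *RIPK1* in *LA* against control, and in sg*FOS* against sgScr the calls for *FADD* and *CFLAR* held under it while that for *MLKL* did not.

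sgScr against *LA* shows how far the fusion groups lay apart without *FOS* editing. It shares its libraries with the other 2 comparisons, whose values are therefore not independent of it. The fit pools the spread of both groups, although sgScr replicates were far more alike than those of *LA*. Its p-values therefore rest in part on the tight sgScr libraries and may understate the spread of *LA*. *GSDME* was 1.88-fold lower in sgScr (log2 fold change -0.91, SE 0.090, adjusted p = 0.00315). Over 15 alternative fits the log2 fold change of *GSDME* was -0.96 to -0.84. *FADD* was 1.36-fold lower in sgScr (-0.45, SE 0.087, adjusted p = 0.0192), which was lost without sgScr replicate 1, 2 or 3 (adjusted p = 0.11, 0.123 and 0.106 for *FADD*), with all 9 libraries fitted together (0.0845) and with the replicate block (0.193). These were 2 of 7 members, against 10.6% of all 14521 genes called higher and 12.3% called lower. The *FADD* level of sgScr thus lay below that of both *LA* and sg*FOS*, which overlapped with each other.

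*MLKL* had a log2 fold change of 0.75 (SE 0.315, adjusted p = 0.134) in sgScr against *LA*, which was 0.28 without *LA* replicate 2. *CFLAR* had -0.71 (SE 0.268, adjusted p = 0.104), which was -0.12 without *LA* replicate 2. *RIPK1* had -0.09, *CASP8* 0.16 and *GSDMD* -0.0011. Of the 7 members, 1 was higher and 3 were lower in sgScr without overlap, where 29.5% of all genes were higher and 27.2% lower. The median was -0.09 over the members and -0.016 over all genes.

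The genes around the members were taken from 5 lists of 64 genes, of which 54 passed the filter in each comparison. In sg*FOS* against sgScr, 14 rose and 4 fell (25.9% and 7.41%), where 12.2% of all genes rose and 10.5% fell. Of 19 death receptor and TNF complex genes, 9 rose and 0 fell (47.4% and 0.0%). At an unadjusted p under 0.05, 10 were higher and 0 lower, where 2478 and 2334 of all 14196 genes were. With all 9 libraries fitted together 2 were higher and 0 lower at that p (310 and 134 of all 14849 genes), and 0 genes were called. *FAS*, a death receptor that recruits *FADD*, was 1.84-fold higher (log2 fold change 0.88, SE 0.091, adjusted p = 1.25e-09), at 25.4 and 23.6 CPM in sg*FOS* and 13.1, 13.0 and 14.1 CPM in sgScr. *TNFAIP3*, the ubiquitin-editing enzyme A20, rose by 0.63 and *TNFRSF10A*, a TRAIL receptor, by 0.41 on the log2 scale. The list's median was 0.15. For the same pair of groups the paper reports gene sets for the response to tumor necrosis factor as enriched in sg*FOS*. Those gene sets were not tested here.

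Of 11 other necroptosis genes, 1 rose and 3 fell in sg*FOS* (9.09% and 27.3%), with a median of -0.07. Over all genes, 12.2% rose and 10.5% fell. *PELI1*, a ubiquitin ligase, had a log2 fold change of -0.44, *PPM1B*, a phosphatase, -0.19, and *HSP90AA1*, a chaperone of kinases, -0.17. Of 11 apoptotic caspase and apoptosome genes, 1 rose and 0 fell (9.09% and 0.0%). The gene that rose was *BID* at 0.24, the substrate through which caspase-8 reaches the mitochondrion. Of 10 tested inflammasome genes, 2 rose and 1 fell (20.0% and 10.0%), with *DPP9* at 0.19, *IL18* at 0.15 and *CARD8* at -0.28. The calls for *PELI1* and *IL18* held in 7 and 8 of 15 alternative fits. *DPP9* holds *CARD8* inactive, and *IL18* encodes a cytokine released in pyroptosis. Of 3 tested genes of gasdermins and membrane rupture, 1 rose and 0 fell (33.3% and 0.0%), with *NINJ1* at 0.29. Its protein ruptures the plasma membrane of dying cells.

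**Figure D4:**
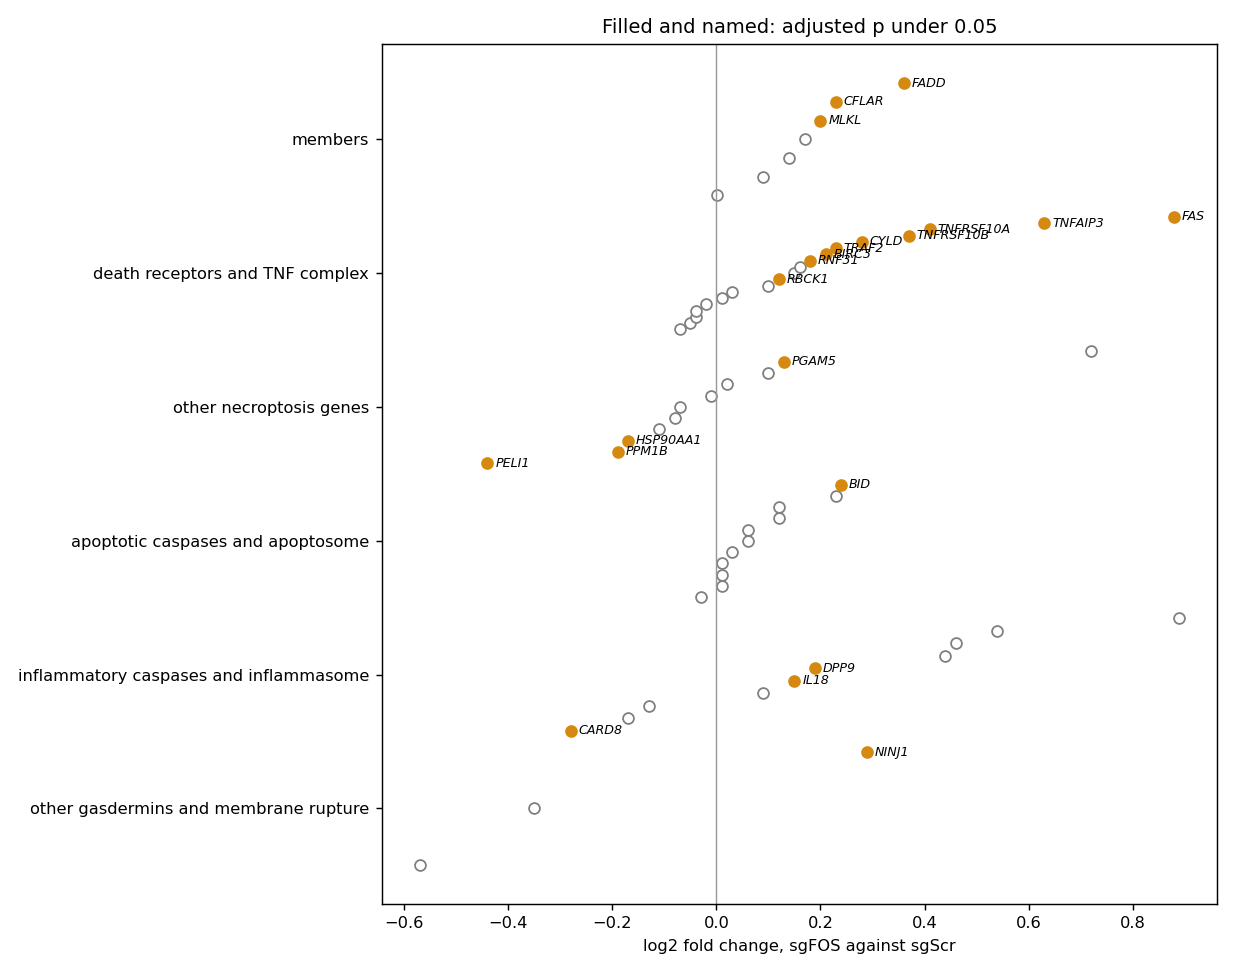
Log2 fold change in sg*FOS* against sgScr of the tested members and of the tested genes of the 5 lists (rows); filled, named points have an adjusted p under 0.05, open points do not, and vertical position within a row only spreads the points. In the death receptor and TNF complex row 9 of 19 genes are filled, all to the right of 0.

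In *LA* against control, 4 of 54 list genes rose and 7 fell (7.41% and 13.0%), close to the 9.57% and 9.94% of all genes. *APAF1*, the scaffold of the apoptosome, rose by 2.18, *DPP8* by 2.34, *TNFRSF10A* by 1.65 and *TNFAIP3* by 1.61 on the log2 scale. *PYCARD*, the inflammasome adaptor ASC, had -2.31, at 25.6 and 8.55 CPM in control and 3.07 and 3.85 CPM in *LA*, and *CHMP2A*, a subunit of the membrane repair machinery, had -1.74. *CASP6* (-1.35), *CDC37* (-1.34), *DIABLO* (-1.31) and *TRADD* (-1.21) also fell. Corrected for length and GC content, *APAF1* (1.33), *DPP8* (1.55) and *TNFRSF10A* (1.68) still passed, and *TNFAIP3* (1.14, adjusted p = 0.0806) and the falling genes named here did not, with *PYCARD* at -0.95 and *TRADD* at -0.21. *DPP8* kept its call in 15 of 15 alternative fits and *APAF1* in 14, losing it without *LA* replicate 1 (adjusted p = 0.111). *TNFRSF10A* lost its call without *LA* replicate 1 (0.221), *LA* replicate 2 (0.136) or control replicate 1 (0.056), and so did *TNFAIP3*, *PYCARD*, *CHMP2A*, *CASP6*, *CDC37*, *DIABLO* and *TRADD*. With the replicate block *TNFAIP3* (0.0529), *CASP6* (0.103), *CDC37* (0.113), *DIABLO* (0.117) and *TRADD* (0.151) were not called.

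In sgScr against *LA*, 7 of 54 list genes rose and 3 fell (13.0% and 5.56%), beside 10.6% and 12.3% of all genes. *BIRC3*, an inhibitor of apoptosis that ubiquitinates *RIPK1*, had a log2 fold change of 0.75 and *CASP6* 0.77. *TICAM1*, an adaptor that can engage *RIPK3*, had 0.63, *PGAM5*, a mitochondrial phosphatase, 0.47 and *DIABLO* 0.37. *TLR3*, the receptor upstream of *TICAM1*, had -1.26, on 19 to 41 counts per library of these groups, *PJVK*, a gasdermin family member, -1.31 and *IL18* -0.86. All 8 genes named for this comparison lost their calls on leaving out any sgScr library (adjusted p = 0.0529 to 0.163), where the calls over all genes dropped from 3327 to between 389 and 532. With the replicate block *BIRC3* and *IL18* were called and the other named genes were not.

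The genes whose level followed each member most closely over the 9 libraries were found by Pearson's r of log2 CPM among 11897 genes. They were *WWTR1* (0.997), *MITF* (0.992) and *CPEB2* (0.99) for *GSDME*, *GXYLT1* (0.995), *SLC16A1* (0.991) and *GNB4* (0.987) for *CASP8*, and *PAGR1* (0.994), *TSPAN17* (0.993) and *QPCTL* (0.992) for *GSDMD*. *PSMB8* (0.978) and *ADI1* (0.974) were closest to *FADD*, and *HSPD1* (0.974), *DESI1* (0.967) and *SORD* (0.964) to *MLKL*. *KIF3C* (0.972), *HSPB8* (0.969) and *TMEM184B* (0.967) were closest to *RIPK1*, and *SGK223* (0.982), *TOM1L2* (0.982) and *C15orf52* (0.981) to *CFLAR*. The 9 points share groups and library composition, and r is given as a description.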

How the data were processed

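For each of the 9 libraries the authors deposited gene-level read counts, whole numbers that were not normalized. Stranded mRNA libraries were sequenced in paired ends; per the submitters' processing notes, reads were aligned to hg19 with STAR 2.7.10b and compared with DESeq2 1.26.0. How reads were counted (program, annotation, strand) is not given in the sources used here. All per-sample columns were used.

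Counts were tested in R 4.3.3 with edgeR 4.0.16 (TMM, filterByExpr, two-sided quasi-likelihood test, only the libraries compared, Benjamini-Hochberg adjustment over all genes tested). SE was derived from the log2 fold change and its F statistic. Means over groups are of 2 or 3 libraries. GENCODE on GRCh37 gave positions, transcript lengths and GC content, by symbol or older symbol. Python 3.11.15 was used for tables and plots.

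Members and lists were chosen with earlier results of these data known. Of each list, up to 3 called genes with the largest log2 fold change in each comparison were named; levels of *ZBP1*, *CASP1*, *CASP4*, *CARD8*, *NAIP*, *NINJ1* and genes at 0 were given as context, chosen after their values were seen. Some items are not reported here. Patterns were compared as log2(CPM + 0.5) among genes averaging 50 counts or more.

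In simulated data, 200 genes were changed by a log2 fold change of 2. The test recovered 55.0% of them in *LA* against control (14146 genes), 99.0% in sg*FOS* against sgScr (14024 genes) and 91.5% in sgScr against *LA* (14268 genes). Of its calls, 0.9%, 7.04% and 8.04% were false. Smaller changes, such as the 0.36 of *FADD* in sg*FOS* against sgScr, were not simulated, so their recovery is not known. Alternatives were DESeq2 1.42.0, its size factors, upper quartile normalization, library size alone, a stricter filter (50 counts on average), no filter, all 9 libraries fitted together, the replicate number as a block, a loess correction for length and GC content (span 0.5), other thresholds and leaving out each replicate. A block with crossed numbers was added after seeing the data.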

Additional observations from a re-analysis of the deposited data

How the results depend on the processing

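With 1 count in all, *RIPK3* did not pass the filter and was not tested. The spread of the control and *LA* replicates limits *LA* against control. *GSDME* lost its call there with any *LA* library or control replicate 1 left out. Where a replicate was left out, a lone library was assumed to vary like the others.

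In *LA* against control, 2814 genes and 1 member were called. These were 6799 and 3 with all 9 libraries fitted together, 1519 and 0 with the replicate block (1 member, *GSDME*, at an unadjusted p under 0.05), 1674 genes with the length and GC correction, and 4977 and 3 at an absolute log2 fold change over 0.5 with an unadjusted p under 0.05; leaving out a replicate gave 253 to 5078 genes and 0 to 2 members. Of the calls, 49.0% were higher, and 70.1% with library size alone, which shifted the median of all genes by 0.28. Reversed values were, under the correction without and with the block, -0.16 and -0.16 for *RIPK1*, 0.17 and 0.18 for *FADD* and -0.31 and -0.36 for *CFLAR*, and 0.13 for *MLKL* without *LA* replicate 2, against -1.1 without *LA* replicate 1.

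In sg*FOS* against sgScr, 3221 genes and 3 members were called. These were 1956 genes with DESeq2 (*FADD* and *CFLAR* among them), 0 and 0 with all 9 libraries together, 818 and 0 at the threshold of the study, and 580 and 0 at an adjusted p under 0.05 with an absolute log2 fold change over 0.5; leaving out a replicate gave 1916 to 3518 genes and 2 to 3 members. In the fit of all 9 libraries the unadjusted p was 0.0289 for *FADD*. *GSDMD*, near 0, changed sign to -0.00066, -0.01, -0.01, -0.001, -0.0046, -0.08 and -0.07 with DESeq2 size factors, upper quartile, no filter, DESeq2, all 9 libraries, the correction and the correction with the block, to -0.07 without sg*FOS* replicate 1 and to -0.02 without sgScr replicate 1, and was 0.06 without sg*FOS* replicate 2.

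In sgScr against *LA*, 3327 genes and 2 members were called. These were 1436 and 1 with all 9 libraries, 1230 and 1 with the replicate block, 1367 and 1 with the block and the correction, and 1 member at an adjusted p under 0.05 with an absolute log2 fold change over 0.5; leaving out a replicate gave 389 (without sgScr replicate 3) to 9926 genes (without *LA* replicate 1) and 1 to 6 members. *GSDMD* changed sign to 0.01 with DESeq2 size factors and with DESeq2, 0.03 with no filter, 0.02 with all 9 libraries, 0.17 with the correction, 0.15 with the correction and block, 0.17 without *LA* replicate 2 and 0.02 without sgScr replicate 1. Without *LA* replicate 2, *RIPK1* was 0.05 and *CASP8* -0.06; without *LA* replicate 1, *RIPK1* was -0.21, *CASP8* 0.45 and *GSDMD* -0.14. The cause of these changes was not tested.

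Libraries of *LA* and control with the same number deviated from their group means with a correlation of -0.216. Those of sg*FOS* and sgScr did so with -0.119 and 0.00904, and those of sgScr and *LA* with -0.0335 and -0.00982. With 2 libraries in a group the deviations mirror each other, and crossed numbers gave 0.216 for *LA* and control. These values therefore cannot show whether libraries with the same number were handled together. Under the block *GSDME* in *LA* against control lost its call (adjusted p = 0.108); with crossed numbers 3878 genes and 1 member were called.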
